A study of Mus musculus with 2 samples.

Results

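The genes described here are Rest, its corepressor Rcor1 and 8 neuronal genes that REST is known to silence in cells other than neurons: Snap25, Syn1, Stmn2, Gria2, Bdnf, Chga, Rbfox3 and L1cam. They were taken by name from GENCODE M21 and make up 10 of 21911 protein-coding genes. Chromatin accessibility was measured by DNase-seq: nuclei are treated with DNase I, which cuts DNA wherever it is not packed away. The tissue was heart from male mice of strain B6CASTF1/J, the first-generation offspring of C57BL/6J and CAST/EiJ parents, aged 14 days. There was 1 group with 2 biological replicates and nothing to compare it with, so values are given for each replicate and no test between groups was possible. Replicate 1 is labelled as 3 males, replicate 2 carries no such number, and nothing states whether hearts were pooled.

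REST (RE1-silencing transcription factor, also called NRSF) is a zinc finger protein that holds neuronal genes silent outside the nervous system. It binds a DNA element called RE1, made of unequal parts with a short spacer, and recruits 2 corepressor complexes, one built on RCOR1 (CoREST) with a histone demethylase and histone deacetylases, the other on SIN3. In heart muscle it is also known for holding down genes of the fetal cardiac programme, such as those for natriuretic peptides and pacemaker channels. A DNase peak marks accessible DNA, and a footprint is a short stretch, mostly inside such peaks, that was cut less than its surroundings. Neither names the bound protein, and neither is a measure of transcription.

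RE1 was searched as the letters TTCAGCACC, 2 free bases, GGACAG, 1 free base and GCC, which are 18 fixed letters in 21 bases, on both strands of the mm10 genome and with up to 3 mismatches. The windows of the 10 genes, each the gene body and 20 kb either side, held 17 matches. The sequences below are the matches that lay in accessible DNA of 6 targets, read from the reference (C57BL/6J) on the strand of the match, 5′ to 3′, with the match in capitals and 4 flanking bases on each side in lower case. They are shown because the results turn on them, and their likeness follows from the search.
Bdnf: tccaTTCAGCACCTTGGACAGAGCCagcg
Stmn2: ccatTTCAGCACCACGGACAGCGCTtctg
Syn1: cggaTTCAGCACCGCGGTCAGAGCCttcg
Chga, intron: aggaTTCAGCACCTCGGACAGCACCaggt
Chga, upstream: gtgtTTCAGGACCACGGACAGCGACacgg
Gria2: cgatTTTAGCACCGCGGACAGCGCTttgg
L1cam: gggcGTCAGCACCATGGACAGGAACatac

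Differences from the consensus are written with the consensus base first, the position counted from 1 at the 5′ end of the match, and then the base found. The Bdnf match (chr2:109676045-109676065) has none. Stmn2 (chr3:8508230-8508250) has C21T, Syn1 (chrX:20921130-20921150) has A14T, and the intronic Chga match (chr12:102555238-102555258) has G19A. The upstream Chga match (chr12:102550694-102550714) has C6G and C20A. Gria2 (chr3:80802989-80803009) has C3T and C21T and lies on the strand opposite to the gene. The L1cam match (chrX:73869537-73869557) has T1G, G19A and C20A.

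For Snap25 and Rbfox3 the whole accessible region is printed, on the strand of the gene, because theirs are the strongest regions with a match and hold more than 1, with each match in capitals. The L1cam region also holds a second, weaker match with 4 mismatches (chrX:73869507-73869527). The Snap25 region (chr2:136714261-136714440) holds a match with C20A and C21T, and before it a weaker one with 4 mismatches, which the main search does not count. The Rbfox3 region (chr11:118584921-118585100, minus strand) holds 3 matches, with G13A, with C6T, C20G and C21G, and with G19A and C20A, in the order printed.
Snap25: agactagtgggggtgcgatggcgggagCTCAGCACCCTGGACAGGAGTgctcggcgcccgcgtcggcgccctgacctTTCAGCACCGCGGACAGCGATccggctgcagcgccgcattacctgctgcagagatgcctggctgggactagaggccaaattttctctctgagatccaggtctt
Rbfox3: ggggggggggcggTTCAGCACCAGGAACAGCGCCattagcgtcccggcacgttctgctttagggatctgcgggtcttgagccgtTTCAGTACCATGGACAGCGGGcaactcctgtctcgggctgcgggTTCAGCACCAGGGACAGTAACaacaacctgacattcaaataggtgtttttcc

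The libraries held 143122 peaks in replicate 1 and 125118 in replicate 2, of which 104623 merged regions had a peak in both and are called shared. Peak signal is the height the authors gave each peak. Of the shared regions, 80.7% were higher in replicate 1, with a median log2 ratio of 0.31 (replicate 1 to 2, SD over regions 0.35). The sources used here state no read totals, and the depth of each peak is therefore unknown. Of the cardiomyocyte markers, all 6 (Actn2, Myh6, Tnnt2, Ryr2, Pln and Nkx2-5) had a promoter peak in both replicates, a state shared by 68.8% of all protein-coding genes, so this count does not tell heart from another tissue. Their median was 2.22, led by Actn2 at 4.09 ± 1.09 (SD, n = 2), Ryr2 at 2.93 ± 0.233 and Nkx2-5 at 2.36 ± 0.264.

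All 10 genes had a peak of both replicates within 1 kb of an annotated start, against 68.8% of all protein-coding genes. The heights spanned a wide range. Rcor1 stood highest at 18.4 ± 3.92 (SD, n = 2), Rest and Snap25 followed at 6.24 ± 0.671 and 6.18 ± 0.505, and Stmn2 was lowest at 0.441 ± 0.0490. Of the 10, 9 lay below 6.60, the median promoter of all genes open in both replicates. The median of the 8 targets was 2.71, close to 2.86, the median over all protein-coding genes, those without a promoter peak included. In a whole tissue, fewer cells with an open site and less cutting per cell cannot be told apart.

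**Figure D1:**
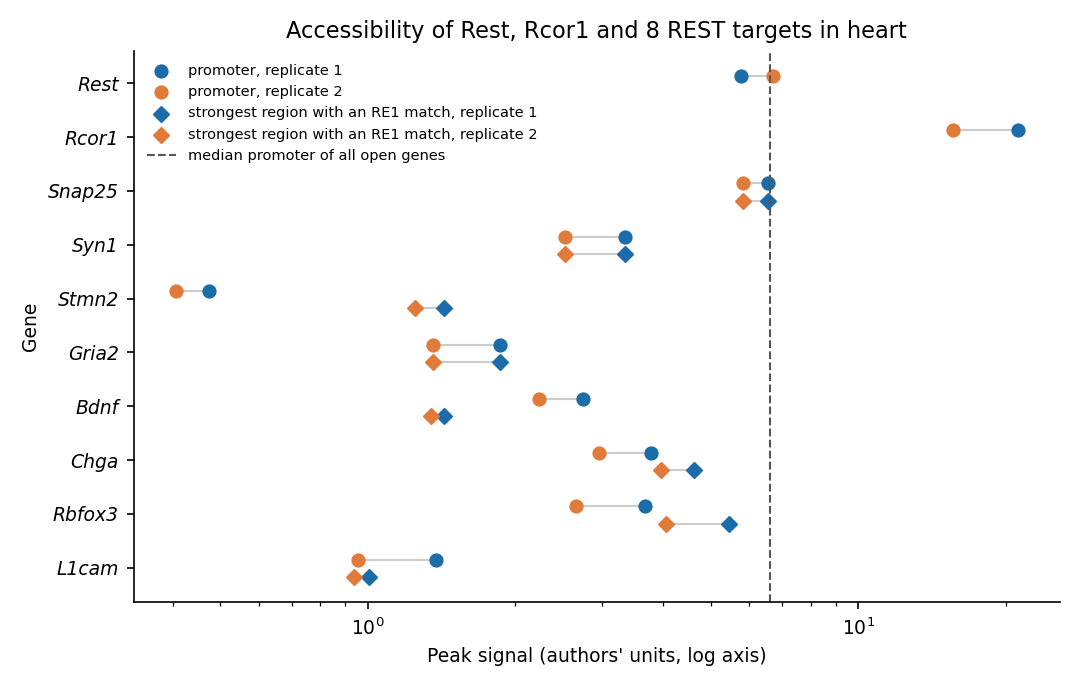
Peak signal (x axis, log scale, in the authors' units) of each gene (y axis) in replicate 1 and replicate 2. Circles are the strongest promoter peak, diamonds the strongest shared region that holds an RE1 match, and the dashed line is the median promoter of all open genes, 6.60. Rcor1 stands above the line in both replicates, Rest straddles it, and at Snap25, Syn1 and Gria2 circles and diamonds are the same peak.

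Rest (ENSMUSG00000029249.15, chr5:77265491-77286432, plus strand), the gene for the repressor itself, had 3 shared promoter regions. The strongest (chr5:77265301-77265540) lay over the 5′ start and reached 5.77 in replicate 1 and 6.71 in replicate 2. The next (chr5:77265801-77266020) reached 3.45 and 3.31, and the third (chr5:77266041-77266760), by the start of the second annotated transcript, 1.41 and 2.63. Rest was thus the only one of the 10 with a higher promoter in replicate 2, with a log2 ratio of -0.22 (replicate 1 to 2), against 0.17 to 0.53 for the other 9 genes. Since 80.7% of all shared regions were higher in replicate 1, the rest were not, and a higher value in replicate 2 is not particular to this gene. In the intron a shared region (chr5:77276061-77276240) had 0.865 and 0.704. Of all open genes, 47.8% had a lower promoter signal than Rest. The 1 RE1 match in its window, with T1C, C8T and C21A, lay downstream of the gene (chr5:77287951-77287971) in no peak and under no footprint of either replicate. The footprints of the main promoter region numbered 5 and 4.

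Rcor1 (ENSMUSG00000037896.17, chr12:111039351-111115901, plus strand) encodes the scaffold that links REST to the demethylase KDM1A and to histone deacetylases. Its promoter region (chr12:111039101-111039320) ended just before the 5′ start and reached 21.1 in replicate 1 and 15.6 in replicate 2. Of all open genes, 95.2% had a lower promoter signal. A second start had 1.37 and 1.70, and the strongest of 4 shared intronic regions (chr12:111088381-111088580) had 3.26 and 1.97. No RE1 match with up to 3 mismatches lay in its window.

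The other partners of REST also had open promoters. The list of 25 cofactors holds corepressors, chromatin enzymes, phosphatases and factors of REST import and turnover, Rcor1 among them. All 25 had a promoter peak in both replicates, against 68.8% of all protein-coding genes. Their median was 11.7, and 24 of 25 lay above the median of open genes. Among the highest were Ctdsp2, a phosphatase that acts on REST, at 26.1 ± 4.84, and Btrc, a ubiquitin ligase subunit that marks REST for degradation, at 25.2 ± 3.94. None of the 25 had an RE1 match in a peak of both replicates, and over all protein-coding genes 3.26% had one.

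Each of the 8 targets had an RE1 match in a peak of both replicates, in the gene body or within 20 kb of it. Of the 17 matches, 14 lay in such a peak, 1 in a peak of replicate 1 alone and 2 in none. Over the whole genome the share was 19.6% of 3637 matches. With at most 2 mismatches it was 10 of 10 in these genes and 50.6% of 796 in the genome. The 8 genes are known REST targets, and Stmn2 is among the genes in which the element was first described, so an RE1 near them follows from their choice and is given as a description.

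The best RE1 region of each target ranked high among its regions. Among shared regions in the gene body and 5 kb upstream, leaving out those at starts of other genes, the region with an RE1 match was the strongest in 5 of 8 targets (Snap25, Syn1, Stmn2, Gria2 and Chga). Syn1 had no other region in that stretch, and both regions of Chga there held a match, so the rank of these genes was fixed. The best RE1 region was the next strongest in Bdnf, Rbfox3 and L1cam. Over the whole windows with 20 kb either side it was the strongest in 4 of 8, and at L1cam it came after 2 others. The further RE1 regions of Rbfox3 were weaker, with means of 0.420, 0.864 and 1.21. In all, 12 of 85 shared regions in the 10 windows held a match, with a median of 1.50 (mean of replicates, range 0.420 to 6.18). The 73 regions without one had a median of 0.744. They include regions of Rest and Rcor1 and at starts of other genes, so the medians are not like for like. In the genome, shared regions over 1 kb from protein-coding starts had a median of 0.831. The 299 such regions with a match of at most 2 mismatches had 1.09. Of all shared regions in the genome, 0.658% held a match with at most 3 mismatches.

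**Figure D2:**
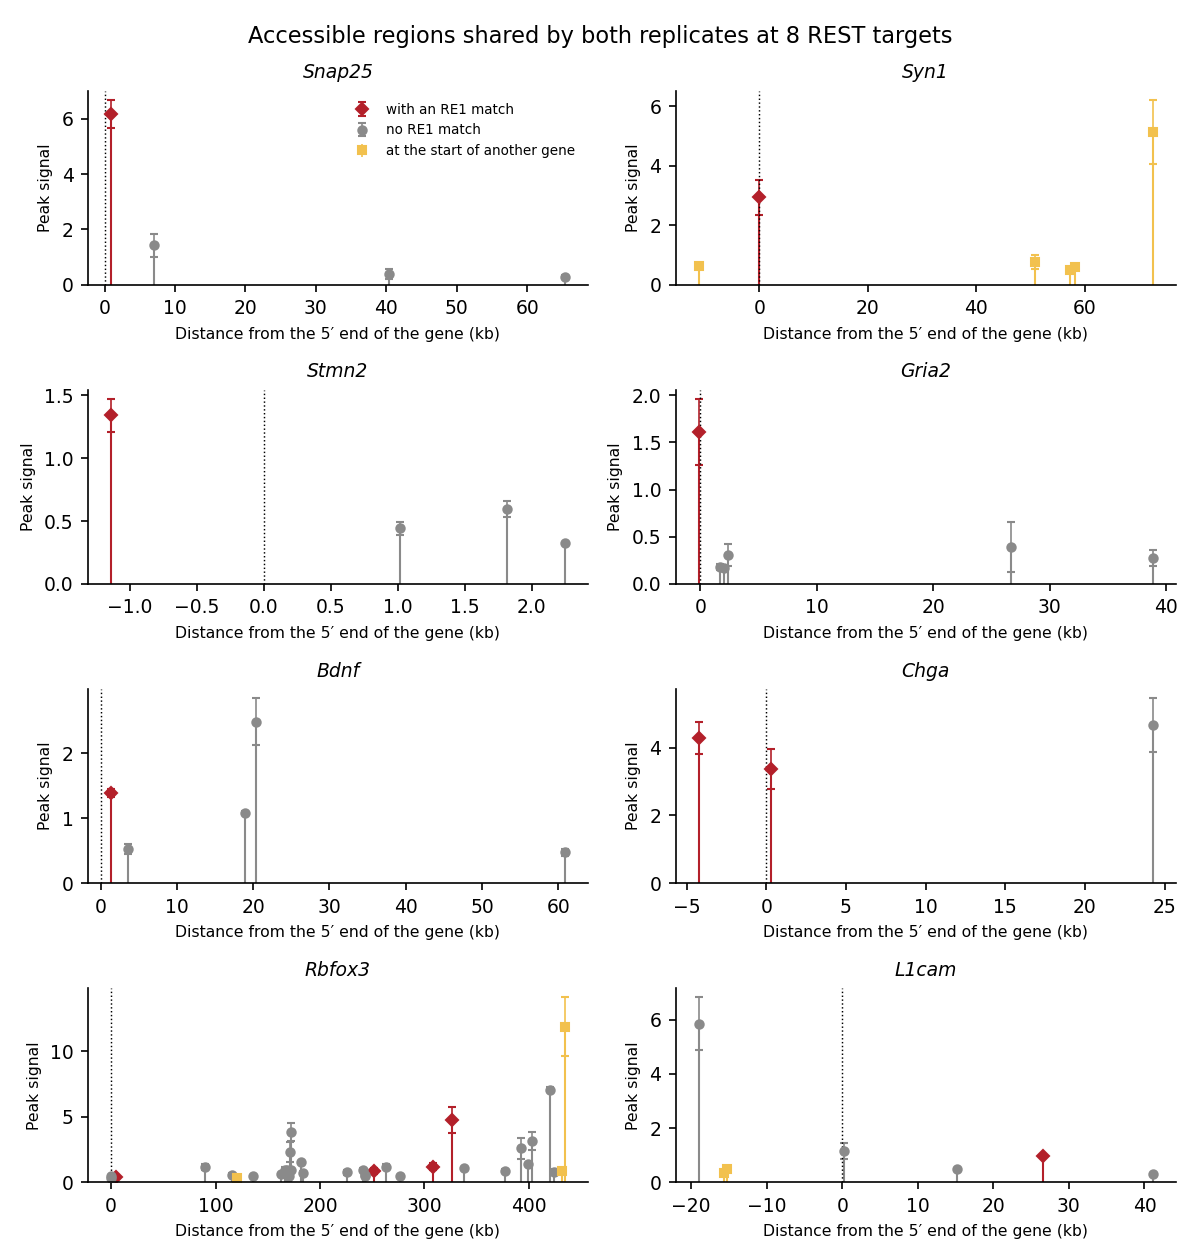
Mean peak signal (y axis, authors' units, bars are the SD over 2 replicates) of every shared region in the gene body and 20 kb either side of 8 targets, by distance from the 5′ end of the gene (x axis, kb, positive into the gene, dotted line at 0). Red diamonds hold an RE1 match, grey circles hold none, and yellow squares lie at the start of another gene. A red diamond is the highest point other than yellow squares in Snap25, Syn1, Stmn2 and Gria2, while in Chga a grey region downstream at 4.67 stands above both.

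Snap25 (ENSMUSG00000027273.13, chr2:136713453-136782428, plus strand) encodes a SNARE protein of the presynaptic membrane that drives vesicle fusion. Its annotated starts were nearly closed: a peak of 0.234 lay over them in replicate 1 and none in replicate 2. The strong peak lay inside the first kilobase, in the intron, and is the region printed above. It had 6.54 in replicate 1 and 5.83 in replicate 2. The middle of its RE1 match was 895 bp from the 5′ end. All 21 bases lay under a single footprint (chr2:136714333-136714363) with the same borders in both replicates, and the lowest deposited FDR of cleavage there was 1.1e-106 in replicate 1 and 6.07e-72 in replicate 2. A further intronic region (chr2:136720341-136720520) had 1.70 and 1.13 and held no match.

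Syn1 (ENSMUSG00000037217.15, chrX:20860511-20921004, minus strand) encodes a phosphoprotein that tethers synaptic vesicles. It had 1 region that was not at the start of another gene (chrX:20920941-20921200), which covered the 5′ start and reached 3.35 in replicate 1 and 2.52 in replicate 2. The match lay 136 bp upstream of the start, at the edge of the region. Here the footprint was the exception among the targets, with 0 of 21 bases covered in replicate 1 and 11 in replicate 2. Both Syn1 and L1cam are on the X chromosome, which males carry once. Among X-linked genes, 73.9% had a lower promoter signal than Syn1 and 63.6% a lower one than L1cam, against 50.4% and 40.5% of all genes, so each stood higher among its own chromosome's genes.

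Stmn2 (ENSMUSG00000027500.10, chr3:8509360-8561606, plus strand) encodes stathmin 2, a microtubule-binding protein of growing axons. No peak of either replicate came within 100 bp of any of its 4 annotated starts. The RE1 region (chr3:8508141-8508300) lay upstream, 1120 bp from the 5′ end to the middle of the match, and had 1.43 in replicate 1 and 1.25 in replicate 2. It fell just outside the promoter window, so the promoter value of the gene, 0.475 and 0.406, came from a weaker region in the intron. With windows of 2 kb the promoter value was 1.34 ± 0.131. The match was covered over all 21 bases by a footprint in both replicates.

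Gria2 (ENSMUSG00000033981.14, chr3:80681450-80802835, minus strand) encodes an AMPA receptor subunit that limits calcium entry. The RE1 region (chr3:80802901-80803060) was its only shared promoter region, with 1.86 in replicate 1 and 1.36 in replicate 2. The match lay 164 bp upstream of the 5′ end. The other 5 shared regions of the gene reached at most 0.389 ± 0.263, so the RE1 region was the one strong site in a long gene. Footprints covered all 21 bases in both replicates.

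Chga (ENSMUSG00000021194.6, chr12:102554969-102565028, plus strand) encodes chromogranin A, a core protein of secretory granules. It had 3 shared regions in its window. The upstream RE1 region (chr12:102550641-102550800) had 4.63 in replicate 1 and 3.97 in replicate 2, with the match 4265 bp before the 5′ end. The RE1 region in the intron (chr12:102555161-102555340), 279 bp past the 5′ end, had 3.79 and 2.95. Neither replicate had a peak over the start itself. The third region (chr12:102579141-102579320), downstream of the gene, had 5.23 and 4.11 and no match. Both matches lay wholly under footprints in both replicates.

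Bdnf (ENSMUSG00000048482.14, chr2:109674700-109727007, plus strand) encodes brain-derived neurotrophic factor and has 9 annotated starts. Its match, the only one of the 17 with no mismatch, lay in an untranslated exon, 158 bp past the second start and 1355 bp from the 5′ end. The RE1 region (chr2:109675961-109676140) had 1.43 in replicate 1 and 1.35 in replicate 2, and footprints covered all 21 bases in both. The strongest region (chr2:109694921-109695120), in an intron further in and without a match, had 2.74 and 2.23. A region over the start at 109693563 had 1.06 and 1.10. No peak lay within 1 kb of the 5′ end itself, so the promoter value of Bdnf came from internal starts.

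Rbfox3 (ENSMUSG00000025576.17, chr11:118489762-118911597, minus strand) encodes the splicing factor known to histologists as NeuN. It is the longest of the 10 and held 7 of the 17 matches, 6 of them in peaks of both replicates. The printed region with 3 matches, deep in the gene body, had 5.45 in replicate 1 and 4.06 in replicate 2. Each of the 3 was touched by a footprint of its own in both replicates, which covered 21 bases in replicate 1 and 19 to 21 in replicate 2. Of the other intronic RE1 regions, chr11:118603221-118603400 had 1.41 and 1.00, chr11:118659401-118659580 had 1.04 and 0.692, and chr11:118906701-118906843 had 0.447 and 0.394. A match upstream of the gene lay in a peak of 0.433 in replicate 1 and in none in replicate 2.

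The strongest region of Rbfox3 other than those at starts of other genes lay in an exon near its 3′ end (chr11:118490941-118491080), with 7.21 and 6.93 and no match. At the 5′ end the 2 regions reached only 0.350 ± 0.00327 and 0.459 ± 0.0329. The promoter value of 3.16 ± 0.715 belonged to a region (chr11:118507981-118508180) near the start of a short internal transcript. With the 5′ end alone the promoter value fell to 0.459.

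L1cam (ENSMUSG00000031391.18, chrX:73853778-73896105, minus strand) encodes a cell adhesion molecule that guides axons. The strongest region of its own (chrX:73895821-73896000), by the 5′ end, had 1.38 in replicate 1 and 0.955 in replicate 2. That 5′ end is the start of a transcript not annotated as protein-coding, and no peak came within 100 bp of it. A region over an internal protein-coding start (chrX:73880761-73880940) had 0.518 and 0.466. The RE1 region (chrX:73869461-73869620) had 1.01 and 0.937, and its match lay 257 bp past the start of an internal transcript under a footprint that covered all 21 bases in both replicates. A second match, in an exon, with C6T, G13T and C20G, lay in no peak of either. A stronger region in the upstream flank (chrX:73914961-73915240) had 6.53 and 5.16.

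The targets thus differed in where the accessible element sat. Of the 14 matches in peaks of both replicates, 9 were in introns, 4 upstream and 1 in an exon, 11 on the strand of the gene and 4 within 1 kb of its 5′ end. Of the 50 annotated starts of the 8 targets, 7 had a peak of both replicates within 100 bp, which is 14.0%. Over 93517 annotated starts of all protein-coding genes the share was 44.6%. Genes with many annotated starts weigh most in this count, and L1cam alone has 13. By gene, 5 of the 8 targets had such a peak at a start, and the share by gene over all protein-coding genes was not counted. With peaks that hold an RE1 match left out, an alternative chosen after seeing the data, Syn1, Gria2 and Chga had no promoter peak left in either replicate. Snap25 kept only the peak of 0.234 in replicate 1, and the number of open genes fell from 10 to 6. At Snap25, Syn1, Gria2 and Chga the strongest promoter peak held a match, so this fall follows from the choice of peaks and genes. The share over all protein-coding genes was then 68.5%. The peaks that remained at Rest, Rcor1, Stmn2, Bdnf, Rbfox3 and L1cam were as before.

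The same element was followed through the whole genome. Of 23 matches with no mismatch, 78.3% lay in a peak of both replicates (exact 95% interval 56.3 to 92.5%), and of 173 with 1 mismatch 68.2% (60.7 to 75.1%). The share was 44.5% of 600 with 2 mismatches (40.5 to 48.6%), 10.9% of 2841 with 3 (9.79 to 12.1%) and 3.11% of 21066 with 4 (2.88 to 3.36%). The matches of these genes are among them, and the intervals cover counting error only. In these genes 4 of 7 matches with 3 mismatches were accessible, beside 10.9% in the genome. All of the 4 but the L1cam match lie in Rbfox3, and 1 of them shares its peak with matches that have fewer mismatches. They are therefore not separate draws, and the genes were chosen as known targets.

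**Figure D3:**
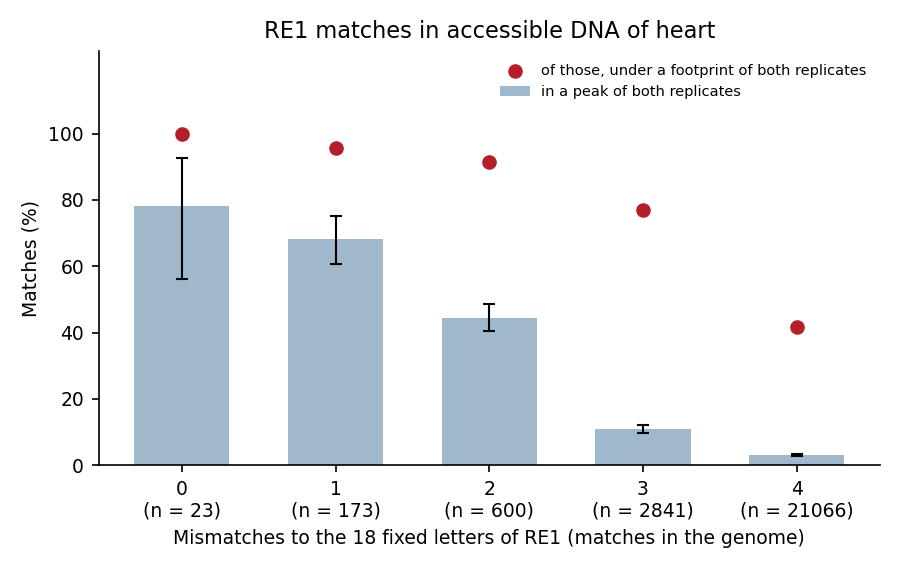
Share of RE1 matches in the genome (y axis, %) by number of mismatches (x axis, n below). Bars are matches in a peak of both replicates with exact 95% intervals, and red points are the share of those under a footprint of both replicates. The bars fall from 78.3% with no mismatch to 3.11% with 4, and the points from 100% to 41.6%.

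Footprints marked most accessible matches. In the 10 genes, 13 of 14 matches in peaks of both replicates were touched by a footprint in both, Syn1 being the exception, and 10 of 14 were covered over all 21 bases in both. In the genome the share touched was 100% with no mismatch, 95.8% with 1, 91.4% with 2, 77.1% with 3 and 41.6% with 4. Around the 403 accessible matches with at most 2 mismatches, footprints covered on average 89.8% of matches at each of the 21 bases in replicate 1 and 87.7% in replicate 2. Cover dropped to 1.99% and 2.23% at 23 bp before the middle of the match, and to 3.23% and 2.73% at 21 bp after it. It rose again further out, to 39.2% and 38.2% at 61 bp before, and to 46.9% at 61 bp and 43.7% at 59 bp after. Since the authors called footprints with a tool that the sources used here do not name, how far the caller sets these gaps was not tested.

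**Figure D4:**
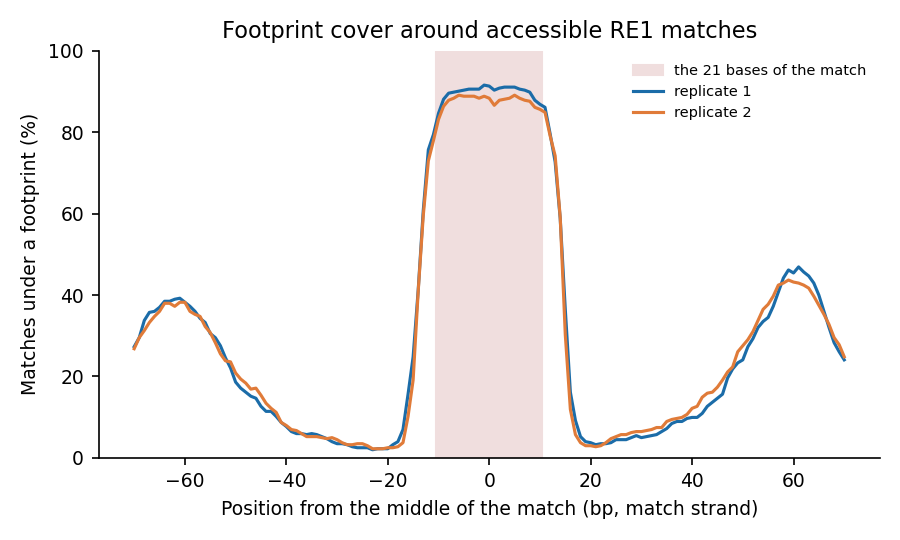
Share of 403 accessible RE1 matches with at most 2 mismatches that lie under a footprint (y axis, %) at each position from the middle of the match (x axis, bp, on the strand of the match), in replicate 1 and replicate 2. The shaded band is the match itself. Cover averages 89.8% and 87.7% inside the match, is near 2 to 3% some 20 bp away and rises again near 60 bp on both sides.

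Accessible RE1 matches lay close to the middle of their peak. Over the matches of the 10 genes, the median distance from match middle to peak centre was 16.0 bp in replicate 1 and 15.5 bp in replicate 2, and Syn1 was farthest, at 89.5 and 69.5 bp. For the 403 in the genome, with at most 2 mismatches, the median to the centre of the merged region was 7.5 bp. The distances of the 10 genes were taken to each replicate's own peak and with up to 3 mismatches, so the medians are not like for like. The regions of the 403 had a median width of 180 bp, which is also the median width of the 12 RE1 regions of these genes. The windows of the 10 genes held 259 footprints in replicate 1 and 260 in replicate 2. Of those of replicate 1, 57.9% shared a base with one of replicate 2, close to 56.2% over all footprints. Footprints per kilobase of peak ran from 7.19 at Stmn2 to 20.8 at Chga in replicate 1 and from 3.97 at Gria2 to 26.9 at Chga in replicate 2, beside 11.6 and 11.9 over all peaks. Chga had the densest footprints of the 10 in both replicates, from only 10 footprints in replicate 1 and 14 in replicate 2. Its region without an RE1 match held 3 and 4 of these. Whether RE1 matches bear on footprint density was not tested.

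Other neuronal genes that REST is known to silence also had open promoters. All 30 on that list had a promoter peak in both replicates, against 68.8% of all protein-coding genes. This list, like the others, was chosen with earlier results of these data known. Their median of 2.76 was close to 2.86 over all protein-coding genes, and 24 of 30 lay below 6.60, the median of open genes. An RE1 match in a peak of both replicates was found at 16 of these 30 known targets, against 3.26% of all protein-coding genes. The highest promoters were those of Vgf, a neuropeptide precursor, at 11.4 ± 1.59, Disp2, a Dispatched family membrane protein, at 10.0 ± 1.37, and Syt7, a vesicle calcium sensor, at 9.95 ± 1.20. Vgf and Syt7 had an accessible match and Disp2 had none.

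Of 6 genes through which REST is known to act in heart muscle, 5 had a promoter peak in both replicates. The share over all protein-coding genes was 68.8%. Gnao1, a G protein subunit, had 7.44 ± 1.59, Cacna1h, a T-type calcium channel, 1.98 ± 0.0978, and Nppb, the natriuretic peptide B gene, 1.81 ± 0.564. Hcn2, a pacemaker channel, had 0.752 in replicate 1 and none in replicate 2. An accessible RE1 match in both replicates was found at Hcn2, Hcn4 and Cacna1h, and over all protein-coding genes 3.26% had one. Nppa and Nppb are neighbours with 1 match between them, which lay in no shared peak.

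**Figure D5:**
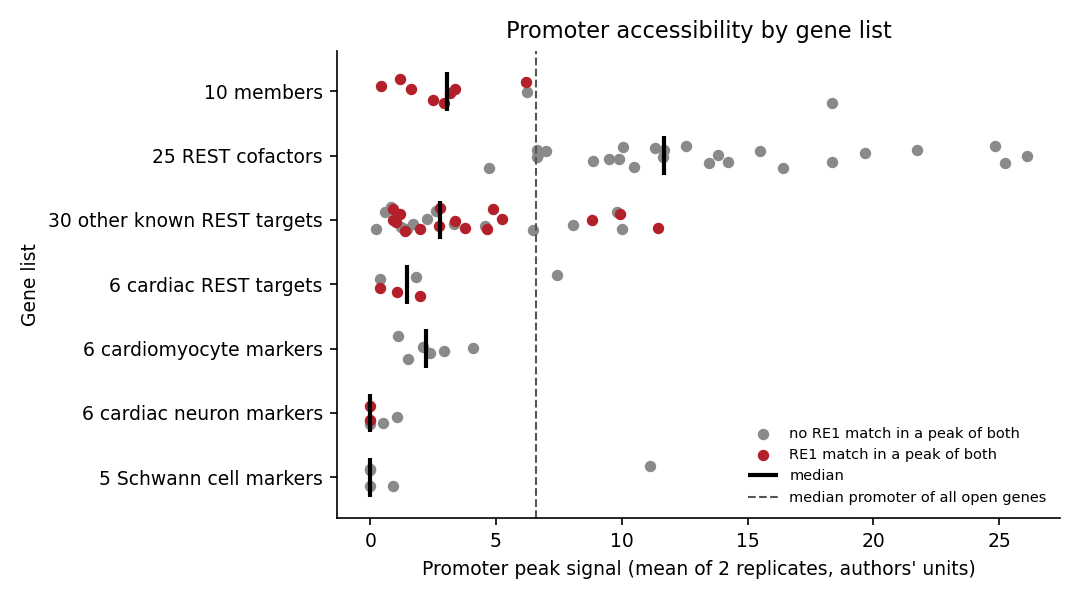
Promoter peak signal (x axis, mean of 2 replicates, authors' units, 0 where neither replicate has a peak) of each gene in 7 lists (y axis). Red points are genes with an RE1 match in a peak of both replicates in the gene body or within 20 kb of it, grey points have none, black bars are list medians and the dashed line is the median of all open genes, 6.60. The 25 cofactors centre on 11.7 and hold no red point, while the 30 other targets centre on 2.76 and hold 16.

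Heart also contains nerve cells and the glia around their fibres. Of 6 markers of cardiac neurons, 2 had a promoter peak in both replicates, beside 68.8% of all protein-coding genes. Among them was Prph, at 1.06 ± 0.0175. Th, Dbh, Chat and Slc18a3, which define the transmitters of those neurons, showed no promoter peak in replicate 1 or 2. The summed promoter signal of the list was 1.55 in replicate 1 and 1.59 in replicate 2. Chat and Slc18a3 overlap, and the 1 RE1 match in their windows lay in a peak of both replicates although neither promoter had a peak. Of the Schwann cell markers, Sox10 and Cdh19 showed no promoter peak in replicate 1 or 2. S100b had 0.926 ± 0.365. The part of these cells in the accessibility of the 8 targets was not tested.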

How the data were processed

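DNase-seq libraries of 2 biological replicates, 1 group, were analysed from the deposited lists on mm10, which per the file headers and the notes beside the files were made for each replicate from its own filtered alignment. The deposited peak signal is the authors' height per peak, with a scaling the sources do not state. FDR (false discovery rate) values deposited for DNase cleavage cover only bases under 0.05. In the footprint lists deposited by the authors, the other numeric column is 0.01 in every row and was left out. Callers and their versions, read totals and how CAST reads were treated: not given in the sources used here. With 1 group there is no p-value between groups.

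The larger peak set was used, the smaller as an alternative. Peaks of both replicates sharing a base were merged, and a region's value is its highest peak in each replicate. A promoter was 1 kb either side of any start in GENCODE M21, and "open" means a promoter peak in both replicates. Sequences came from GRCm38.p6, the assembly of mm10. Members and lists were chosen with earlier results of these data known. Named beyond the 10 are the 3 highest of each list and those without a peak; further names (Hcn2, Hcn4 and Nppa) were chosen after their values were seen. Some genes this rule would name are not reported here. On simulated data, 100% of 3000 overlaps and 100% of 200 planted matches were recovered. Tools were bedtools 2.31.1 and Python 3.11.15 with pandas 2.3.3, numpy 2.4.6, matplotlib 3.10.9 and scipy 1.17.1. Alternatives are given in the closing section.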

Additional observations from a re-analysis of the deposited data

How the results depend on the processing

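The 10 genes with a promoter peak in both replicates became 8 with windows of 500 bp (67.2% of all genes), where Snap25 and Stmn2 were lost, 9 with the 5′ end alone (64.2%), where Bdnf was lost, and 9 with the upper 50% of peaks (62.3%), where Stmn2 was lost. They became 6 without peaks that hold an RE1 match, an alternative chosen after seeing the data. That fall follows from the choice of peaks and genes. The 85 shared regions in the windows became 133 with a flank of 50 kb and 42 with the upper 50% of peaks, and the footprints, 259.5 on average, became 443 with that flank. RE1 matches in the windows numbered 10 with at most 2 mismatches and 37 with at most 4, and 10 and 17 of these lay in a peak of both replicates, so that the share of 82.4% fell to 45.9% with at most 4. Over the genome, the share of matches in a peak of both replicates, 19.6%, was 50.6% with at most 2 mismatches, 5.54% with at most 4, 17.0% away from protein-coding starts and 16.2% with the smaller peak set. From replicate 2 or replicate 1 alone it was 20.5% and 22.5%. The share of those under a footprint of both, 86.1%, was 93.1%, 64.8% and, with the smaller peak set, 91.5%. Replicate 1 alone gave 83.2% and replicate 2 alone 86.9%. The causes were not tested beyond what each setting leaves out. Of 145 values under alternatives, 120 stayed within the replicate spread or 1.5 times the count. For the promoter signals, leaving out either replicate could not move a value beyond that spread. The smaller peak set gave the same promoter signals. The total therefore overstates how stable the values are. Unknown depth, unknown callers and 2 replicates limit every value, and the CAST sequence at the printed elements was not analysed.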
